A study of Mus musculus with 19 samples.

Results

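The cytosolic ribosomal protein genes were taken as the protein-coding mouse genes whose symbols begin with Rpl or Rps and a number, together with the stalk genes Rplp0, Rplp1 and Rplp2 and with Rpsa. Genes of the ribosomal S6 kinases and entries marked as pseudogenes were left out. This rule gave 81 of 21883 protein-coding genes, 50 for proteins of the large (60S) subunit and 31 for proteins of the small (40S) subunit, counting paralogs such as Rpl3l, Rpl10l, Rpl39l and Rps27l. They lie on 19 chromosomes, with 14 genes on chromosome 7, 7 on chromosome 11 and 4 on the X chromosome. Their median annotated length was 3175 bp, against 17170 bp for all protein-coding genes.

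Bulk ATAC-seq, which tags accessible DNA with a transposase, was made on forebrain progenitors that carry the surface protein Prom1, taken from mouse embryos at embryonic day 14. The 19 libraries comprised 4 controls (Foxc1 wild type, no diet), 4 mutants (Foxc1 hith/LacZ, no diet), 5 wild-type controls on a retinoic acid (RA) diet and 6 mutants on the RA diet. Foxc1 is a transcription factor needed for the meninges that cover the forebrain, the hith allele is hypomorphic, and the LacZ allele carries a reporter insertion. The genotype label of mutant 1 reads wild type, against its title, so it is called the library titled mutant 1, and the main counts of members are also given without it. Whether the libraries of a group came from different animals is not stated in the labels, and p-values below then reflect only the variation among these samples, which may be technical.

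Ribosomal proteins are made in every dividing cell, in amounts matched to ribosomal RNA, and most are encoded by a single functional gene. Their promoters are compact, often lack a TATA box and often start transcription inside a run of pyrimidines, which in the mRNA forms the 5′ terminal oligopyrimidine tract through which mTOR signalling controls translation. Embryonic neural progenitors grow and divide quickly and are known for a high demand for ribosomes.

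The promoters of 9 members show the sequence features that the results below refer to. They are 110-base windows, from 90 bases before to 20 bases from the annotated start, taken from RefSeq on GRCm38.p6 and written 5′ to 3′ on the gene's strand. Capitals mark the motif CCGGAAG, the core that ETS-family factors such as GABPA bind, and any pyrimidine run that begins with a C within 5 bases of the start. Rpl37, Rpl15 and Rps21 are shown because their gene ends were among the 5 best-scoring of the members in these libraries. They lie at chr15:5116523-5116632 (plus strand), chr14:18270967-18271076 (minus strand) and chr2:180257289-180257398 (plus strand).
Rpl37: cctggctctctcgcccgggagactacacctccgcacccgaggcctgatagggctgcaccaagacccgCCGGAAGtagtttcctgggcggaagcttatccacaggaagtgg
Rpl15: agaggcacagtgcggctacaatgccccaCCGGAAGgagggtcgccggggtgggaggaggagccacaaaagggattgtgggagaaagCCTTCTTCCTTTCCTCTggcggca
Rps21: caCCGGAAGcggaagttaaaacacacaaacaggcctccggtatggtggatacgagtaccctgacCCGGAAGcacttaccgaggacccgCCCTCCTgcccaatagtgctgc

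Rps2, Rps27l and Rpl38 are shown because their annotated start lies inside the longest gene model, so that a search around the gene's ends missed it in some or all libraries. They lie at chr17:24719973-24720082 (plus strand), chr9:66945996-66946105 (plus strand) and chr11:114668490-114668599 (plus strand).
Rps2: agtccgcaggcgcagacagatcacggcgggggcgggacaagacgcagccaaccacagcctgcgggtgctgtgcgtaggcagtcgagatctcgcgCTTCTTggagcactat
Rps27l: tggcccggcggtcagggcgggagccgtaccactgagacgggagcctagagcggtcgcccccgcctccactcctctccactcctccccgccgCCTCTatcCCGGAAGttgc
Rpl38: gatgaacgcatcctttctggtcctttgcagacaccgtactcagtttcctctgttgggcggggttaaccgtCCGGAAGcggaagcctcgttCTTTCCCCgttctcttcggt

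Rps25, Rpl10l and Rpl39l are shown because no library had a summit within 500 bp of their start. They lie at chr9:44407624-44407733 (plus strand), chr12:66284382-66284491 (minus strand) and chr16:10170138-10170247 (plus strand). The Rps25 window holds a CCGGAAG match. The windows of Rpl10l and Rpl39l as printed hold none, nor do some windows of occupied genes shown here, and the 300-base window of Rpl39l does hold one.
Rps25: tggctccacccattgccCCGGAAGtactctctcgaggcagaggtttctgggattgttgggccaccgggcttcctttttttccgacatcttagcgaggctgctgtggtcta
Rpl10l: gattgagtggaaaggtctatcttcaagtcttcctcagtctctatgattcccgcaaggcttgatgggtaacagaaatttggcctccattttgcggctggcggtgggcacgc
Rpl39l: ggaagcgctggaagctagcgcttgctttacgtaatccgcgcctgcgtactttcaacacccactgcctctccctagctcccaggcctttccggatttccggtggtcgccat

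Across all 61 members with a start in the RefSeq table, 24 (39.3%) had CCGGAAG on either strand of the 300 bases around the start, against 11.9% of 17491 genes. A pyrimidine run of a C and at least 4 further pyrimidines, with the C within 5 bases of the start on the gene strand, was present in 28 members (45.9%), against 18.7% of genes. The GC box core GGGCGG was found in 35 members (57.4%), against 46.3% of genes, and AAGATGG, the core of YY1 sites, in 8 members (13.1%), against 6.37%. TATAAA was found in 6 members (9.84%), against 13.3%, and the E-box CACGTG in 5 (8.20%), against 7.90%. GC content was close, with a median of 57.0% in members and 56.3% in all genes. These matches describe letters in a window and were not tested as binding sites. CCGGAAG and AAGATGG share the letters AAG, so their matches can overlap.

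Occupancy of the gene ends was the first question. Most ribosomal protein genes had a summit, the most accessible point of a called peak, at 1 of their ends in every library. Because libraries held between 29112 and 122591 summits, presence was read from the 29112 best-scoring summits of each library, and a summit counted when it lay within 1 kb of either end of the gene. By this measure 66 of 81 members (81.5%) were occupied in all 19 libraries, against 36.6% of all protein-coding genes. With any deposited summit the number was 71 of 81, against 43.1%. No library had a matched summit at the ends of 6 members, where 43.7% of all genes had none. The subunits were alike in this respect, with 40 of 50 large-subunit genes and 26 of 31 small-subunit genes occupied in all libraries. As the genes were picked with earlier results of these data known, these counts are given as a description with no test.

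Neighbouring gene classes gave a scale for this share. Translation factors were occupied in all libraries in 33 of 36 cases (91.7%) and ribosome biogenesis genes in 32 of 38 (84.2%). Mitochondrial ribosomal proteins reached 54 of 78 (69.2%) and proteasome subunits 27 of 39 (69.2%). Among 13 regulators tied to ribosomal stress, 7 were occupied in all libraries (53.8%). Of 10 neural progenitor markers, 6 were occupied in all libraries, among them Sox2, Vim, Fabp7 and Hes5. Pax6, Nes, Hes1 and the separation marker Prom1 were not among them by this gene-end measure. Neuronal markers were occupied in all libraries in 2 of 6 cases and endothelial markers in 1 of 6, and none of the mural, meningeal fibroblast, microglial or erythroid markers was. All 5 erythroid markers lacked any gene-end summit in every library.

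Position at the start was sharp. Of the 61 members in the RefSeq start table, 49 (80.3%) had a matched summit within 1 kb of an annotated start in all 19 libraries, against 40.0% of 17491 genes. The median distance of the best summit from the start was -41 bp (quartiles -94 and -10, negative values upstream), close to the -46 bp (quartiles -108 and 10) of the 7001 genes occupied in all libraries. Within 150 bp of the start lay 43 of the 49 members (87.8%), against 76.9% of genes, and 38 (77.6%) had the summit upstream, against 70.7%. From library to library the summit of a member moved over a median range of 86 bp, against 112 bp for all genes.

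**Figure D1:**
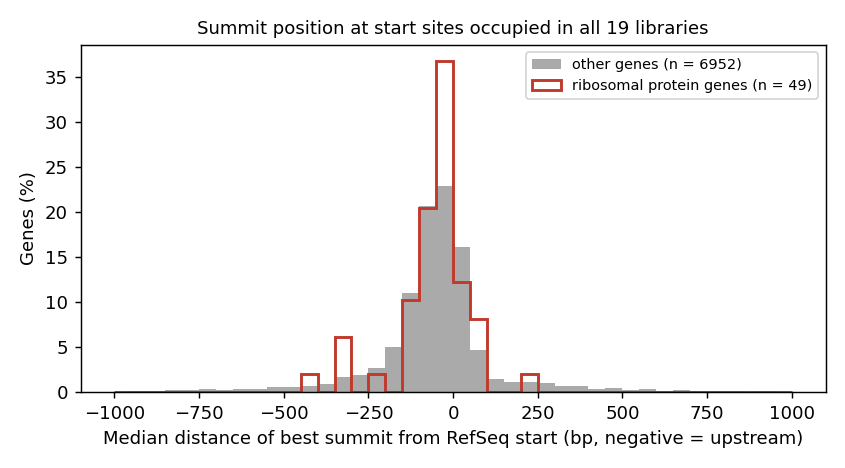
Median distance over 19 libraries of the best summit from the RefSeq start, in bp with negative values upstream, for the 49 ribosomal protein genes (red outline) and the other genes (grey) with a matched summit there in all libraries; the y axis is the percentage of genes per 50 bp bin. Both distributions peak just upstream of the start, and 43 of the 49 members lie within 150 bp.

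Single members differed in where the summit lay and in how steady its place was. In Rps26, a small-subunit protein gene mutated in some patients with Diamond-Blackfan anaemia, the summit lay between -330 and -325 bp in all 19 libraries. In Rpl35 it lay between -58 and -51 bp, and in Rpl24, the gene of the mouse Belly spot and tail mutant, between 82 and 94 bp downstream of the start. The summit of Rps28 ranged from -36 to -14 bp. In Rpl10, an X-linked gene whose protein is needed for the final steps of 60S maturation, it was more variable, from -488 to -94 bp (median -401). Rps19 had its summit at a median of -322 bp and Rpl15 at -89 bp, the latter upstream of the CCGGAAG match printed above.

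Strength was measured by rank. Within each library every gene was ranked by the best -log10 q score at its ends, as a percentile with 100 the highest. A percentile of 80 means that the gene scored above 80% of protein-coding genes. Genes without a summit tied at the lowest value, which lay between 18.6 and 27.0 depending on the library. The 66 members occupied in all libraries had a median mean percentile of 82.3 (range 62.2 to 99.6), against 81.0 for all 8000 genes occupied in all libraries. Over 90 were 14 of the 66 (21.2%), against 24.9% of those genes. By rank, the constantly occupied members thus lay in the same range as other constantly occupied genes. The median of large-subunit genes was 82.6 and that of small-subunit genes 81.4. Their spread between libraries was also ordinary, with a median SD of 4.18 percentile points over the 19 libraries against 4.09 for all constantly occupied genes.

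**Figure D2:**
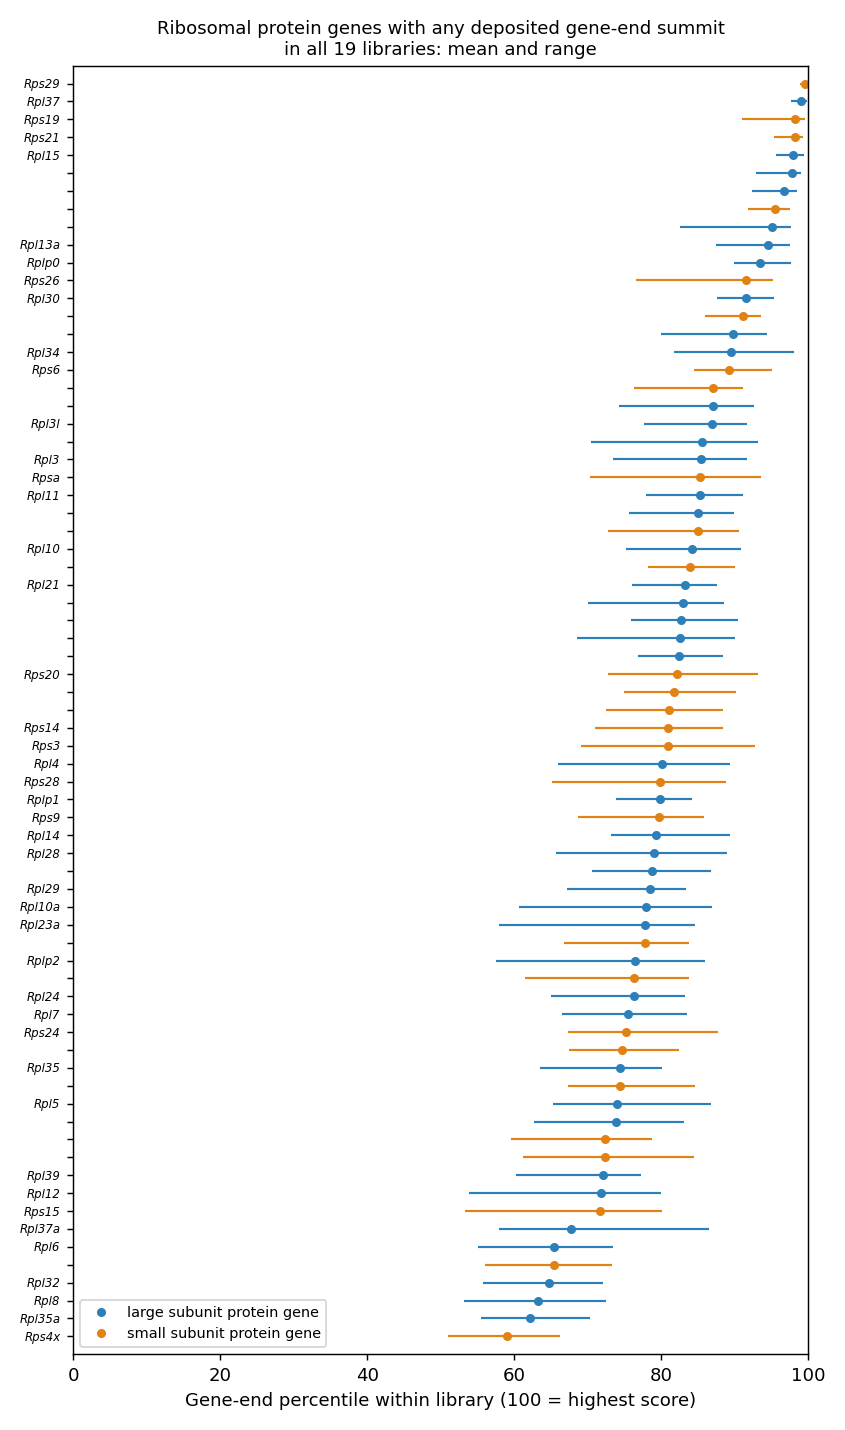
Mean (point) and range over the 19 libraries (line) of the gene-end percentile within library, for the 71 ribosomal protein genes with any deposited gene-end summit in all libraries; blue are large-subunit (60S) and orange small-subunit (40S) genes. Rps29 is highest at 99.6 and Rps4x lowest at 59.1, and the colours are mixed along the whole order; names are given for genes that the text describes.

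Among the members, the highest-ranked ends belonged to 5 genes of both subunits. Rps29, a small zinc-binding protein of the 40S head, had a mean percentile of 99.6 ± 0.277 (SD, n = 19). Rpl37, a large-subunit zinc-finger protein, had 99.1 ± 0.629, and its best summit also lay within 1 kb of an end of Card6 in all libraries. Rps19, the gene most often mutated in Diamond-Blackfan anaemia, had 98.2 ± 2.10. Rps21 (98.2 ± 1.06) and Rpl15 (98.0 ± 0.864) followed, and the summit of Rpl15 was shared with an end of Nkiras1. The ranges of these 5 genes overlap, and Rps29 stayed at or above 98.9 in every library. Rps19 was the exception in steadiness: it was at 99.3, 99.6, 99.5 and 99.2 in controls and at 99.2, 99.6, 91.0 and 95.3 in mutants, so its lowest values were those of mutants 3 and 4.

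Among the lowest ends of constantly occupied members were those of Rpl35a (62.2 ± 3.90), Rpl32 (64.7 ± 4.28), Rpl37a (67.7 ± 5.68) and Rpl39 (72.0 ± 4.45, all SD, n = 19). Rpl35a is a further Diamond-Blackfan anaemia gene, and Rpl39 encodes a small protein at the exit tunnel. The ranges of these 4 genes overlap. The summit of Rpl35a, shared with an end of Iqcg, ranked between 55.4 and 70.3.

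The stalk proteins, which recruit the GTPases of translation, differed in rank. Rplp0, the scaffold of the stalk, was at 93.4 ± 2.03, with libraries between 89.9 and 97.7. Rplp1 was at 79.8 ± 3.37 and Rplp2, whose summit was shared with an end of Pidd1, at 76.4 ± 6.80, all SD with n = 19. Rplp0 lay above Rplp1 and Rplp2 in every library, and the latter pair overlapped.

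Rpl5 and Rpl11 encode the proteins that, with 5S RNA, bind Mdm2 when ribosome assembly fails. Rpl11 had 85.3 ± 3.74 and Rpl5 74.0 ± 5.38 (SD, n = 19). Rps6, the 40S protein phosphorylated by S6 kinase, had 89.3 ± 2.51, Rpl10 had 84.2 ± 5.40 and Rpsa, also known as the laminin receptor precursor, 85.3 ± 4.55. Rps4x, on the X chromosome, was the lowest member with a summit in all libraries, at 59.1 ± 4.19, and had a matched summit in 17 of 19 libraries.

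Sharing of summits limits what an end says of a gene. In 14 members the best summit lay within 1 kb of another protein-coding gene's end in all libraries, and in 57 it never did. Rpl3l, a paralog of Rpl3 known from heart and skeletal muscle, is the clearest case. It ranked at 86.9 ± 3.64 (SD, n = 19), but its summit lay at the end opposite its start, where Msrb1 also has an end, and no library had its best summit at the start of Rpl3l. The same holds for Rpl4, a 60S protein with a loop in the exit tunnel, whose best summit lay at its downstream end beside Snapc5 in all libraries. Within 1 kb of the start of Rpl4 itself, 16 libraries had a matched summit.

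Of the members without constant occupancy, 5 had a matched summit in 17 or 18 libraries, and Rpl38 is described apart. The others fell into 3 kinds. The first lacked any summit in the gene or within 1 kb of it in all 19 libraries: Rpl10l, Rpl39l and Rpl32l. Rpl10l and Rpl39l are paralogs of X-linked genes known from the testis, and their own parents Rpl10 and Rpl39 were occupied in all 19 libraries. A count of 0 libraries here means that no summit passed the authors' threshold, since the files list only called summits.

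**Figure D3:**
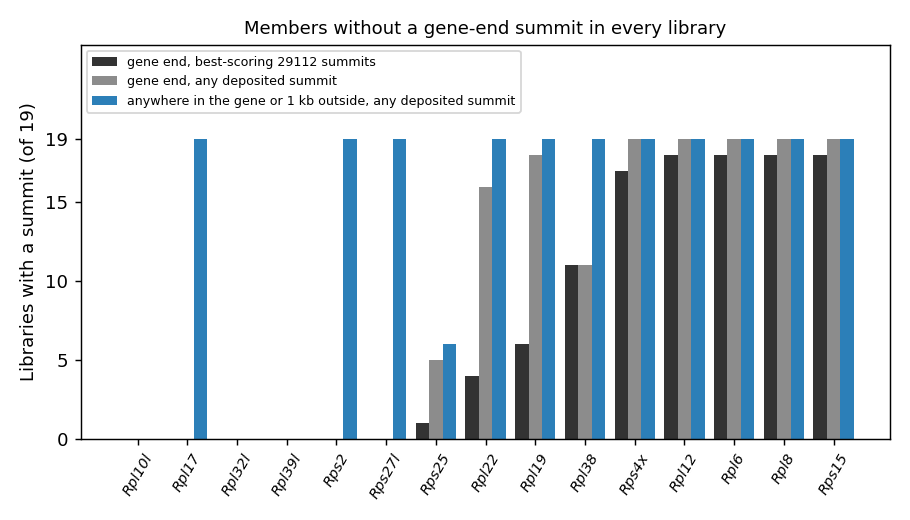
Number of libraries, of 19, with a summit for the 15 ribosomal protein genes not occupied in every library by the matched measure: gene end with the 29112 best-scoring summits (black), gene end with any deposited summit (grey), and anywhere in the gene or 1 kb outside (blue). Of these genes, 11 have a summit in the gene in all 19 libraries, Rps25 in 6, and Rpl10l, Rpl32l and Rpl39l in none.

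The second kind had a summit inside the gene, of varying strength, that the search around the gene's ends did not reach. In Rps2, a 40S protein at the entry of the mRNA channel, every library had a summit 1861 to 1903 bp from the nearer end and -81 to -19 bp from the RefSeq start printed above. Its score ranged from 14.1 to 327 (median 123), and its rank among all summits of a library from 1477 to 9983. Rps27l, a p53 target and paralog of Rps27, was alike, with a summit -94 to -14 bp from its start and a median score of 105 (18.9 to 282). These genes were open at their start in all 19 libraries, although both counted as empty by gene ends.

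Rpl22, a protein that also acts outside the ribosome in lymphocyte development, had a summit 50 to 97 bp downstream of an annotated start in all libraries, with a median score of 102 (17.1 to 293). At its ends it had a summit in 16 libraries and a matched one in 4. Rpl17 had a summit inside the gene in all libraries, 1512 to 1873 bp from the nearer end, with a median score of 57.7 (4.06 to 169). Rpl19, a 60S protein with a long helix bridging the subunits, had weaker best summits in the gene (median score 23.0, 3.58 to 75.3). In some libraries the best one lay near its start. In others, among them the library titled mutant 1 with the score of 75.3, it lay 744 to 759 bp from its end. The summit at its end, matched in 6 libraries, was shared with Cacnb1. When annotated starts were added to the gene ends, 70 members were occupied in all libraries, against 40.1% of all genes, and with the whole gene and 1 kb outside 71 were, against 47.2%. Both settings were added after the data had been seen.

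Rpl38, a 60S protein whose mutation in mice alters the axial skeleton, was a special case. In all 19 libraries it had 1 summit in the gene, with scores from 9.66 to 181, but the place of that summit differed. It lay near the start (-75 to 49 bp) or 466 to 527 bp downstream of it. In the library titled mutant 1 and in mutant 6 on the diet it lay between these, at 235 and 233 bp. The distance to the gene end was therefore 687 to 1289 bp and crossed the limit of 1 kb. In controls it was 792, 1282, 1289 and 1283 bp, and in mutants 997, 798, 731 and 784 bp. In controls on the diet it was 811, 1228, 1283, 790 and 709 bp, and in mutants on the diet it ranged from 687 to 1287 bp. By gene ends Rpl38 was present in 1 of 4 controls, 4 of 4 mutants, 3 of 5 controls on the diet and 3 of 6 mutants on the diet. The 4 mutants lay under 1 kb and 3 of the 4 controls above it.

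The last kind was Rps25, a 40S protein needed for translation from some viral internal entry sites. No library had a summit within 500 bp of its annotated start. In 6 libraries a weak summit lay elsewhere in the gene or within 1 kb of it, with scores of 2.35 to 4.40, and where such a summit lay at an end, it also lay within 1 kb of an end of Ccdc84 or Trappc4 in 4 of 5 libraries. Apart from the paralogs Rpl10l, Rpl32l and Rpl39l, Rps25 was the only member without a summit in the gene or within 1 kb in all libraries. Rpl12, Rpl6, Rpl8 and Rps15 were missed in 1 library each by the matched measure and Rps4x in 2. The library was mutant 4 for Rpl12 and Rpl6, and mutant 3 for Rpl8 and Rps15. Rps4x was missed in mutant 4 and in mutant 3 on the diet. All 5 genes had a summit at an end in every library when weaker summits were counted.

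Members with CCGGAAG did not stand clearly apart from the others in rank. Among the members occupied in all libraries, the 17 with the motif had a median mean percentile of 85.3 (72.0 to 99.1) and the 31 without it 80.9 (62.2 to 98.2). The ranges overlap over most of their length, and no test was made.

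The comparison of genotypes and diets came next. The number of occupied members hardly moved between groups, at 72 ± 1.15 in controls (SD, n = 4), 71.3 ± 2.06 in mutants (SD, n = 4), 72 ± 0.707 (SD, n = 5) in the control libraries with the diet and 72 ± 1.26 (SD, n = 6) in the mutant libraries with it. Over 4317 genes occupied in 1 to 18 libraries, two-sided Fisher's exact tests with Benjamini-Hochberg adjustment called no gene in any of the 5 contrasts between groups (0.0% in each direction). At an unadjusted p under 0.05 they gave 2 genes for mutants against controls and 66 for the diet in controls, 31 for the diet in mutants, 9 for genotype on the diet and 44 for mutants on the diet against controls. With groups of 4 this test cannot go below 0.0286, and the smallest p that any gene reached was 0.0286, 0.00794, 0.00476, 0.0152 and 0.00476 in the same order. Among members the smallest was that of Rpl38 (4 of 4 mutants against 1 of 4 controls, Fisher's exact p = 0.143, adjusted p = 1). Without the library titled mutant 1, whose summit lay at 997 bp from the gene end and so just inside the limit, Rpl38 was present in 3 of 3 mutants.

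Ranks were compared with limma over 13889 genes with a gene-end summit in at least 4 libraries, which included 75 of the 81 members. No ribosomal protein gene passed an adjusted p of 0.05 in any of the 6 contrasts. Nor did any other gene for mutants against controls, for the diet in controls, for genotype on the diet or for the interaction (0.0% in each direction). For the diet in mutants 1 gene was lower (0.0072%), and for mutants on the diet against controls 2 genes were higher (0.0144%) and 1 lower (0.0072%). In bulk libraries, fewer cells with an open site and a less open site per cell cannot be told apart.

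The median percentile of the 81 members in a library gives the overall level. Controls had 83.2, 81.1, 81.1 and 82.6 (mean 82.0 ± 1.06, SD, n = 4), and mutants 79.7, 82.1, 76.4 and 77.3 (78.9 ± 2.57, SD, n = 4). Controls on the diet had 80.9, 79.0, 80.0, 79.5 and 80.8 (80.0 ± 0.803, SD, n = 5), and mutants on the diet 76.8 to 81.4 (79.2 ± 1.49, SD, n = 6). Controls were the highest group, and mutants 3 and 4 were the lowest libraries without the diet. The lower quartile set these apart more clearly, at 62.0 and 65.1 in mutants 3 and 4, against 68.0 to 75.1 in the other 17 libraries. These libraries also had low median scores over all summits, 8.19 and 6.44, where only mutant 4 on the diet, at 7.33, was in the same range, and its lower quartile of members was 71.5. The part of library quality in the members' values was not tested.

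**Figure D4:**
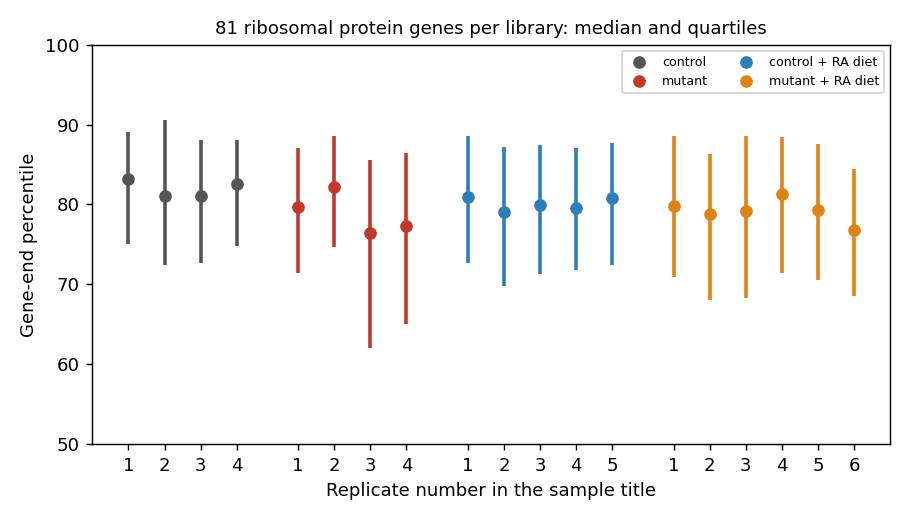
Median (point) and quartiles (line) of the gene-end percentile of all 81 ribosomal protein genes in each of the 19 libraries, by group and replicate number in the title. The lower quartiles of mutants 3 and 4, at 62.0 and 65.1, reach below those of all other libraries.

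In mutants against controls, most members were lower in rank without any one passing the adjusted threshold. Of 75 members 58 had a lower mean and 17 a higher one, against 53.9% and 46.1% of all genes, and the median difference was -2.59 percentile points, against -0.40 for all genes. At an unadjusted p under 0.05, 20 members were lower (26.7%) and 0 higher, against 7.19% and 4.28% of all genes. This count of 20 was 4 without mutant 3, 6 without mutant 4, 25 without mutant 2 and 21 without the library titled mutant 1, and 11 and 13 without controls 1 and 4. The lowest adjusted p of a member was 0.382 (limma, Benjamini-Hochberg). Without the library titled mutant 1, 55 of 75 were lower, and without mutants 3 and 4 together 52 were, with a median of -1.08, against 0.05 for all genes. No member had groups that did not overlap, where 1.58% of all genes were lower and 1.16% higher in that way.

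The smallest p-values belonged to Rps28, Rplp2 and Rps3. Rps28, a small 40S protein near the mRNA exit, was at 88.8, 86.3, 78.1 and 83.9 in controls and at 77.0, 83.2, 67.7 and 65.1 in mutants. The 2 lowest values were those of mutants 3 and 4, and mutant 2 lay inside the control range. The difference was -11.0 ± 3.20 (SE, limma adjusted p = 0.382).

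Rplp2 was at 85.9, 79.4, 84.1 and 83.5 in controls and at 79.7, 81.2, 57.5 and 66.5 in mutants, a difference of -12.0 ± 3.84 (SE, limma adjusted p = 0.382). Rps3, a 40S protein with a second role in DNA repair, was at 86.4, 92.8, 82.2 and 87.5 in controls and at 81.3, 87.4, 69.1 and 69.5 in mutants, a difference of -10.4 ± 3.50 (SE, limma adjusted p = 0.382). In both genes mutants 3 and 4 carried the difference and mutant 2 lay within the controls. Without mutant 2 all 3 genes passed the adjusted threshold, together with 413 of all genes, as described under the dependence on processing.

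Members that were higher in mutants were few. Rps24, a 40S protein, was at 73.9, 69.5, 78.3 and 73.5 in controls and at 72.9, 77.2, 84.8 and 87.7 in mutants (difference 6.86 ± 3.68, SE, limma adjusted p = 0.485). Rpl34 was at 82.7, 93.2, 88.8 and 91.8 in controls and at 94.4, 90.9, 95.0 and 97.0 in mutants (5.20 ± 2.89, SE, adjusted p = 0.506, limma). Again mutants 3 and 4 had the highest values of both genes. Rpl38 had the largest difference, 35.0 ± 19.6 (SE, limma adjusted p = 0.513), which followed the place of its summit: it stood at the bottom rank in the 3 controls with the summit beyond 1 kb. With the limit at 2 kb its difference was -3.77.

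Related classes were also mostly lower, where 53.9% of all genes were lower, with a median of -0.40. Translation factors were lower in 23 of 35 cases (median -1.80), ribosome biogenesis genes in 22 of 36 (median -1.11), mitochondrial ribosomal proteins in 51 of 74 (median -1.38) and proteasome genes in 22 of 33 (median -2.86). None of their members passed the adjusted threshold. At an unadjusted limma p under 0.05, 17.1%, 19.4%, 8.11% and 15.2% of these classes were lower in the same order. The shares were 26.7% of ribosomal protein genes and 7.19% of all genes. Higher were 5.71%, 2.78%, 1.35% and 0%, against 4.28% of all genes. In 2 smaller lists the lower share was above that of the members. Regulators tied to ribosomal stress were lower in 7 of 10 cases (median -2.26), with 30% lower and 10% higher at that p. Ribosomal protein genes with symbols outside the rule were lower in 4 of 7 (median -0.62), with 28.6% lower and 0% higher. Neural progenitor markers were higher in 8 of 10 cases (median 3.01) and meningeal fibroblast markers in 5 of 7 (median 4.79), where 46.1% of all genes were. Neuronal markers were higher in 4 of 6 (median 0.25). Lower were mural markers in 3 of 4 cases (median -3.83), microglial markers in 2 of 2 (median -4.64) and endothelial markers in 1 of 2 (median -3.86). Of the 7 meningeal markers, 1 to 2 were occupied per control library and 1 to 3 per mutant library, and 3 had no matched summit in any library. The part of the cells' makeup in the ribosomal protein values was not tested.

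The RA diet in controls gave small differences in rank. Controls on the diet also had fewer summits on average (mean 77804, against 98555 in controls). Their median scores over all summits ran from 11.1 to 16.9, against 14.8 to 18.1 in controls. The part of library quality in these differences was not tested. Of 75 members 55 were lower and 20 higher, against 53.6% and 46.4% of all genes, with a median of -1.42, against -0.22. At an unadjusted p under 0.05, 5 members were lower and 0 higher, where 2.04% and 2.05% of all genes were, and the 5 were 3 without control 4. All members had an adjusted p of 1.00. In 7 members every library on the diet lay below every control (Rpl6, Rpl10a, Rpl15, Rpl21, Rpl30, Rps6 and Rps19), where 2.28% of all genes did, and no member had the reverse order, where 1.92% of genes did.

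Rpl21, a 60S gene, showed the difference in every library: controls were at 87.2, 86.0, 85.8 and 87.6, and controls on the diet at 81.6, 76.1, 78.3, 81.3 and 83.9 (difference -6.41 ± 1.93, SE, limma adjusted p = 1.00). Rps6 was at 91.4, 92.3, 91.7 and 91.8 in controls and at 88.4, 87.3, 89.0, 87.7 and 88.5 on the diet, a small but separate set of values (-3.60 ± 1.46, SE, limma adjusted p = 1.00). Rpl6 was at 73.4, 69.7, 72.5 and 71.3 in controls and at 65.9, 60.2, 62.9, 63.9 and 60.1 on the diet (-9.14 ± 3.15, SE, limma adjusted p = 1.00). The groups did not overlap in any of these 3 genes. The members with the smallest p in the other direction were Rpl7 (3.09), Rpl3l (1.90) and Rpl38 (21.1 ± 18.6, SE), all with overlapping groups.

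In mutants the diet went with a mixed picture. Of 75 members 45 were higher and 30 lower, where 45.4% and 54.6% of all genes were, with a median of 1.05, against -0.47. This direction rested on mutants 3 and 4. Without mutant 3 the count was 37 higher and 38 lower, without mutant 4 it was 39 and 36, and without both it was 18 higher and 57 lower (median -1.35, against -1.01 for all genes). Without the library titled mutant 1 it was 43 higher and 32 lower. At an unadjusted p under 0.05, 4 members were higher and 9 lower, where 7.34% and 7.24% of all genes were. The 4 were 1 without mutant 3 and also 1 without mutant 4, 12 without mutant 2, 6 without the library titled mutant 1, 9 without mutant 6 on the diet and 2 without each of mutants 1, 3 and 4 on the diet, and the 9 were 6 without mutant 3 or 5 on the diet. No member had groups that did not overlap, where 0.626% of all genes were higher and 0.749% lower in that way.

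Rpl4 had the smallest p, at the end beside Snapc5: mutants were at 76.2, 80.9, 65.9 and 68.8 and mutants on the diet between 75.9 and 89.4 (median 84.0), a difference of 10.7 ± 2.78 (SE, limma adjusted p = 0.131). Rps28, with the mutant values given above, was between 76.8 and 86.1 on the diet (median 81.6, difference 8.03 ± 2.92, SE, limma adjusted p = 0.231). In Rpl23a mutants were at 67.8, 83.9, 60.8 and 62.7 and the diet libraries between 57.9 and 84.6 (median 83.6, difference 10.4 ± 4.64, SE, limma adjusted p = 0.309). The groups overlapped in all 3 genes, in Rpl23a over their whole range because of mutant 6 on the diet, at 57.9.

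Rps20, Rps14 and Rpl35 had the smallest p in the other direction. Rps20 was at 87.1, 78.5, 93.2 and 87.9 in mutants and between 72.8 and 80.6 on the diet (median 79.8, difference -8.11 ± 2.40, SE, limma adjusted p = 0.174). Rps14, a gene of an interval lost in a human myelodysplastic syndrome, was at 86.4, 88.4, 82.7 and 83.9 in mutants and between 71.1 and 83.5 on the diet (-6.69 ± 2.40, SE, limma adjusted p = 0.231). Rpl35 differed by -7.18 ± 2.63 (SE, limma adjusted p = 0.231). In Rps20 only mutant 2 lay within the range of the diet libraries.

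Mutants and controls that both received the diet were close. Of 75 members 26 were higher and 49 lower, against 41.2% and 58.8% of all genes, with a median of -0.62, against -0.51, and 0 members passed an unadjusted p of 0.05, where 0.619% of genes were higher and 1.68% lower. The groups overlapped for all members, where 0.0792% of all genes were higher and 0.194% lower without overlap. The smallest p-values were those of Rps9 (-4.70 ± 2.56), Rpl29 (-4.13 ± 2.55) and Rps20 (-3.03 ± 2.25, SE), and in the other direction Rpl4 (2.46 ± 2.61) and Rpl13a (1.32 ± 1.48, SE, limma adjusted p = 1.00 for all 5). The intervals of 2 SE ran from -9.82 to 0.41 for Rps9 and from -1.64 to 4.27 for Rpl13a.

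Mutants on the diet also ranked mostly below controls. Of 75 members 60 were lower and 15 higher, against 60.9% and 39.1% of all genes, with a median of -2.12, against -0.96. At an unadjusted p under 0.05, 13 were lower and 0 higher, where 5.97% and 3.5% of all genes were, and the 13 were 8 without control 1 and 7 without control 2. In 7 members every library lay below every control (Rplp2, Rpl10a, Rpl28, Rpl30, Rps6, Rps19 and Rps20), where 1.92% of all genes did, and no member had the reverse order, where 1.85% did. This contrast uses the same 4 controls as the contrasts above, so the lower values are not a separate observation. Every mutant library on the diet had a lower median score over all summits (7.33 to 12.9) than every control (14.8 to 18.1). The mean number of summits was 63769, against 98555 in controls. The part of library quality in these differences was not tested either.

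Rpl30, a 60S protein, was at 93.2, 94.0, 94.0 and 95.4 in controls and between 87.5 and 91.8 in mutants on the diet (median 90.3, difference -4.34 ± 1.22, SE, limma adjusted p = 0.256). Rps6 was between 84.4 and 88.6 on the diet in mutants (median 87.6, difference -4.50 ± 1.41, SE, limma adjusted p = 0.322). Rpl28 was at 84.7, 81.6, 86.5 and 89.0 in controls and between 72.6 and 80.7 (median 76.6) in mutants on the diet (-8.44 ± 3.11, SE, limma adjusted p = 0.405). All 3 genes had separate groups, at differences that are small on a scale of 100. In the other direction stood Rpl14 (3.57 ± 2.34), Rpl4 (3.18 ± 2.78) and Rpl38 (18.3 ± 17.9, SE), with adjusted p of 0.642, 0.721 and 0.755 in limma.

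The interaction asked whether the diet difference depended on genotype. It was positive in 51 of 75 members and negative in 24, against 48.8% and 51.2% of all genes, with a median of 2.43, against -0.13. At an unadjusted p under 0.05, 6 members were positive and 0 negative, where 2.46% and 2.15% of all genes were. This too rested on mutants 3 and 4: without both, 36 members were positive and 39 negative (median -0.10, against -0.71 for all genes). Without the library titled mutant 1 the counts were 49 and 26. The 6 members at an unadjusted p under 0.05 were 1 without mutant 3, 3 without mutant 4, 13 without mutant 2, 10 without the library titled mutant 1, 10 without mutant 6 on the diet and 3 without control 1 or control 4. The smallest p-values were those of Rps28 (12.2 ± 4.21), Rpl4 (10.001 ± 4.01) and Rpl3 (8.18 ± 3.43, SE, limma adjusted p = 0.910 for all 3). On the negative side were Rps20 (-5.82 ± 3.46), Rpl34 (-5.20 ± 3.80) and Rpl38 (-37.8 ± 25.8, SE), with adjusted p of 0.910, 0.914 and 0.914 in limma. For Rps28 the difference of the diet was -4.21 in controls and 8.03 in mutants, the latter resting on mutants 3 and 4.

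**Figure D5:**
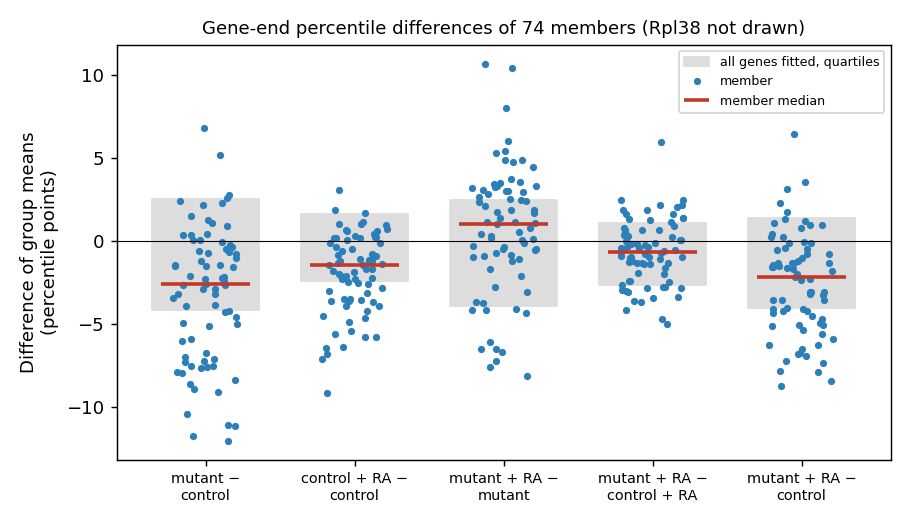
Difference of group means in gene-end percentile (y axis, percentile points) for 74 ribosomal protein genes (blue points) in 5 contrasts, with their median (red line) and the quartiles of all fitted genes (grey boxes); Rpl38 is not drawn because its summit crosses the distance limit. Members extend both below and above the grey box, which spans only the quartiles, in all 5 contrasts, and no member passed an adjusted p of 0.05.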

How the data were processed

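Bulk ATAC-seq libraries of Prom1-positive forebrain progenitors were analysed from peak summits. The authors called summits per library with MACS2 and deposited a -log10 q score for each (neg_log10_p), per the submitters' processing notes, which also name BWA, Signac, DiffBind, mm10 and GRCm38 without versions. The lowest score per library was 1.30 to 1.32. Sequencing depth is not known from these files; library size is given as the number of summits. No library was left out.

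Genes came from a RefSeq table of GRCm38.p6 (21883 protein-coding genes). Per library, each gene got its best score within 1 kb of either end and a percentile among all genes, with genes without a summit tied at the bottom. Groups were taken from the titles. limma 3.58.1 (trend and robust empirical Bayes, R 4.3.3) was fitted with 1 coefficient per group on all 19 libraries for 13889 genes with a gene-end summit in at least 4 libraries, with Benjamini-Hochberg adjustment and a threshold of 0.05. Presence among the 29112 best-scoring summits was compared by two-sided Fisher's exact test (scipy 1.17.1). The limma step was tested on simulated percentiles with known shifts.

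The members, lists and alternatives were chosen with earlier results of these data known. Genes named with values were members not occupied in all libraries, the 5 highest and 5 lowest of those that were, the 3 smallest p-values per contrast and direction, and a set of members of known interest. Rps4l of that set was not analysed here. Genes named for separate groups, summit position, shared summits or printed promoters beyond this rule were chosen after their values were seen. Promoter sequences covered 61 members. They were not analysed for the other 20 members, among them Rpl3, Rpl7, Rpl8, Rpl17, Rpl21, Rpl23a, Rpl29, Rpl30, Rpl32, Rpl36, Rplp1, Rps14, Rps20, Rps27a and Rps29. Values of some genes that the naming rule picks are not reported here. Alternatives were distances of 500 bp and 2 kb, matched summit numbers, other filters, normal scores, no robust step, the number of summits as covariate, a replicate block, the start end only, each library left out, and 3 settings added after seeing the data (annotated starts, whole genes, mutants 3 and 4 left out together).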

Additional observations from a re-analysis of the deposited data

Results flagged for a closer look

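In 8 of 108 sets of values from a single group, 1 library stood far from the others by Dixon's test, where chance flags about 1 in 20 groups. Rpl38 in controls was set apart by control 1, at a percentile of 76.7, the only control with its summit under 1 kb from the gene end. The number of summits in mutants was set apart by mutant 4, with 49804. On the diet, Rpl7 in controls was set apart by replicate 5 at 83.6 and Rplp2 by replicate 3 at 82.6. In mutants on the diet, replicate 6 was low in Rpl23a (57.9), Rpl29 (67.1) and Rps6 (84.4), and replicate 5 was low in Rps20 (72.8). Their causes were not tested.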

How the results depend on the processing

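Named members were followed only in the contrasts for which they were named. Across the alternatives, 1083 of their values kept direction and side of the threshold, 7 turned and 6 newly passed the threshold. The cause was not tested except where stated. All 6 came without mutant 2. For mutants against controls these were Rps28 (-14.4, limma adjusted p = 0.0368), Rplp2 (-15.3, 0.0391) and Rps3 (-13.9, 0.0391). For the diet in mutants they were Rpl4 (13.4, 0.0289), Rps28 (11.3, 0.0403) and Rps20 (-10.8, 0.0289). Rpl38 turned with the distance limit, because its summit crosses it: mutants against controls gave -3.77 at 2 kb, -3.90 with annotated starts added and -4.28 with whole genes, and the interaction 5.11, 5.30 and 5.35. Rpl29 turned to 19.1 at 500 bp for genotype on the diet.

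The number of all genes called for the diet in mutants (1) became 0 at 500 bp, at 2 kb, with matched numbers, with a summit in all 19 libraries and with the start end only, 2 with a summit in at least 1 library and 29 with the number of summits as covariate. It was 129 without the library titled mutant 1, 288 without mutant 2 and 44 without mutant 6 on the diet. Leaving out 1 library at a time gave 0 to 288 genes there, 0 to 413 for mutants against controls (413 without mutant 2), 0 to 2 for the diet in controls, 0 to 1 for genotype on the diet, 0 to 7 for mutants on the diet against controls and 0 to 1 for the interaction. The count for mutants on the diet against controls (3 in the fit above) was 1 with a summit in all 19 libraries, with the covariate and with the start end only. Fisher's exact tests called 0 genes in every such run.

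The titles give groups the same replicate numbers, but same-numbered libraries did not deviate together in a steady way. Over 21 pairs the correlations ran from -0.30 to 0.29, 6 of them over 0.1, and 13 of 42 comparisons were highest with the own number. Whether the numbers mark pairs was not tested. With the number as a replicate block, 6 genes were called for mutants on the diet against controls and 89 for the diet in mutants. The 89 included the member Rpl34, which was not named for that contrast.

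Members occupied in all libraries numbered 66, 71 with all deposited summits, 49 with the 14556 best-scoring summits, 63 at 500 bp, 71 at 2 kb and 66 without the library titled mutant 1. Members lower in mutants numbered 55 to 59 of 75 with 1 library left out. For the diet in mutants 57 were lower without mutants 3 and 4, against 30, and for the interaction 36 were positive, against 51. These runs were chosen after seeing the data. As depth is unknown, no counting error could be given for any score.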

Other observations

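Ribosomal protein genes whose symbols fall outside the rule were occupied to a like extent. Of 8 such genes, 6 had a matched summit at a gene end in all 19 libraries (among them Rpl22l1, Rpl7l1, Rpl36al, Rps3a1 and Rack1), and Fau and Rps27rt did not. Rack1 is a scaffold on the 40S head. In rank, 7 of the 8 could be fitted. They were lower in 4 of 7 cases for mutants against controls (median -0.62 percentile points), in 6 of 7 for the diet in controls (median -2.32), in 6 of 7 for the diet in mutants (median -1.79) and in 6 of 7 for mutants on the diet against controls (median -4.05), where 53.9%, 53.6%, 54.6% and 60.9% of all genes were lower. No gene of this list passed the adjusted threshold in limma.

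Of the 36 translation factors, 3 (Eef1a2, Eef2 and Eif4e) did not have a matched gene-end summit in all libraries. For the diet in mutants, 25 of 35 were higher (median 1.24), against 45.4% of all genes (median -0.47). As with the ribosomal protein genes, this rested on mutants 3 and 4: without both, 16 of 35 were higher (median -0.07), against 37.9% of all genes. For the diet in controls 19 of 35 were higher (median 0.49), against 46.4% of all genes (median -0.22). None passed the adjusted threshold.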
